A study of Mus musculus with 15 samples.

Results

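The genes described here encode the Wnt, Fgf, Bmp and Gdf ligands, 4 families of mostly secreted signalling proteins, and they were read in the H3K4me3 landscape of the adult WT amygdala. Members were all protein-coding genes of GENCODE version M21 whose symbol is Wnt, Fgf, Bmp or Gdf followed by a number, with a letter a or b allowed after the number for Wnt and Bmp. This gave 62 of 21938 protein-coding genes, with 19 Wnt, 22 Fgf, 11 Bmp and 10 Gdf genes, spread over 19 chromosomes. The names rather than the functions of the genes set the membership, so Bmp1, a metalloprotease that trims procollagens, and the Fgf homologous factors Fgf11 to Fgf14, which stay inside the cell, are counted although they are not secreted ligands of Bmp or Fgf receptors.

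The study compared WT mice with mice lacking a copy of the H3K4 methyltransferase gene Kmt2a, mice lacking the H3K4 demethylase gene Kdm5c, and double mutants. All animals were adult males of the F1 generation 129xB6, and the chromatin came from dissected amygdala. Of 15 samples, 11 were H3K4me3 immunoprecipitations with the rabbit monoclonal antibody RM340 and 4 were inputs. The values below rest on 1 list of peak summits that the authors made from both WT mice (Kmt2a+/+, Kdm5c+/y), 2 H3K4me3 samples pooled, so there is no spread between animals and no test, and the mutant samples were not analysed here.

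H3K4me3, trimethylation of lysine 4 of histone H3, marks the first nucleosomes of genes that are active or poised, and it is strongest at promoters rich in CpG dinucleotides. Wnt proteins carry a lipid, bind Frizzled receptors with the co-receptors Lrp5 and Lrp6, and stabilise β-catenin or steer cell polarity and movement. Secreted Fgfs bind receptor tyrosine kinases together with heparan sulfate or a Klotho protein, and Bmps and Gdfs, members of the TGF-β superfamily, bind pairs of serine/threonine kinase receptors that phosphorylate Smad proteins. All 4 families pattern the embryonic brain, and some members act in the adult brain on synapses, glia, blood vessels and neural stem cells.

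A summit is the single base at which a peak was highest, and its score, read as −log10 of the q-value against the input, grows with enrichment and with read depth, so it is a measure of evidence and not of the fraction of nucleosomes methylated. A gene was called marked when at least 1 summit lay within 1 kb of any of its annotated transcription start sites (TSSs). A body summit lay inside the gene but outside those windows. The median score of the 24139 summits on chromosomes 1 to 19, X and Y was 102.3, with quartiles of 15.02 and 201.2, and promoters at or above that median are called strong here. In a tissue of many cell types, fewer cells with the mark and less of the mark per cell cannot be told apart.

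The promoters below are chosen examples of marked and unmarked ligands in sequence. Each run holds the 200 bases before a TSS on GRCm38, written 5′ to 3′ in the direction of the gene, with CpG dinucleotides in capitals. Wnt5a (chr14:28504550-28504749, plus strand) and Fgf14 (chr14:124677128-124677327, minus strand, and its inner start, chr14:124192903-124193102) were the best-marked Wnt and Fgf genes with their own TSS nearest to the summit. Wnt3a (chr11:59290753-59290952, minus strand) was the unmarked Wnt gene with the most CpG-rich promoter.
Wnt5a, marked: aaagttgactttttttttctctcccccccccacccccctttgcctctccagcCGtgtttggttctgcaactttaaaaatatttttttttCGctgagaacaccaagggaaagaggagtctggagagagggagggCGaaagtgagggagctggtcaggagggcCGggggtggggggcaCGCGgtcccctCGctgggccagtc
Fgf14, marked: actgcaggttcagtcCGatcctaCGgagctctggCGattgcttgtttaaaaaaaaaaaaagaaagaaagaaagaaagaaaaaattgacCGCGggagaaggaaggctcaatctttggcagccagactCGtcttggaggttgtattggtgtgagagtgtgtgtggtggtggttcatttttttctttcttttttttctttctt
Fgf14 inner start, marked: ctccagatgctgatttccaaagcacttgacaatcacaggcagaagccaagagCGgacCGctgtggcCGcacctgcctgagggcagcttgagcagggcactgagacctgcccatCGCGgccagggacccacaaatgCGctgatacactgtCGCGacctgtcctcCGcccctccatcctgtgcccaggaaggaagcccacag
Wnt3a, unmarked: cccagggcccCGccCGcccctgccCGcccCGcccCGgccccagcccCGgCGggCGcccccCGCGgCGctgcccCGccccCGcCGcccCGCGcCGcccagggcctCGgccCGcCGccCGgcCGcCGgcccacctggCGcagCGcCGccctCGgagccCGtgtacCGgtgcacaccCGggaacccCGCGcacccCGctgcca
The run of Wnt3a held 33 CpGs, against 7 for Wnt5a and 6 for Fgf14. The most CpG-dense of the printed runs belonged to a gene without a promoter summit, and the best-scoring Fgf promoter was among the sparse ones. Wnt3a was chosen for its CpG content and the others for their scores, so this contrast comes from the choice. Over all ligands the median ratio of observed to expected CpG was higher in marked (0.683) than in unmarked genes (0.366).

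The label of the tissue was checked with lists of marker genes. Of 7 neuronal markers 6 were marked, as were all 5 markers each of astrocytes, oligodendrocytes and microglia and all 4 of endothelial cells. Strong promoters were less even, at 6 neuronal, 3 oligodendrocyte, 2 astrocyte, 1 microglial and 0 endothelial markers. Of 4 telencephalic markers 3 were marked, against 1 of 5 hindbrain markers and 0 of 9 markers of non-neural tissues. Since 64.7% of all protein-coding genes were marked, 3 of 4 says little about the telencephalon, and all these lists are short. The share of each cell type in the dissected tissue, and its part in the ligand scores, was not tested.

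Most ligands were marked, but few were strongly marked. A promoter summit was found at 43 of 62 ligands (69.4%, 95% Wilson interval 57.0 to 79.4%), close to the 64.7% of all protein-coding genes. Strong promoters were found at 15 of 62 (24.2%, 15.2 to 36.2%), against 52% of all protein-coding genes. Among marked genes only, 34.9% of the ligands and 80.4% of all genes were strong. The intervals cover counting error alone, and the members were chosen with earlier results of these data known.

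Gdf genes had the lowest share of marked genes and Wnt genes the lowest median score. Marked genes made up 14 of 19 Wnt genes (73.7%, 51.2 to 88.2%), 16 of 22 Fgf genes (72.7%, 51.8 to 86.8%), 8 of 11 Bmp genes (72.7%, 43.4 to 90.3%) and 5 of 10 Gdf genes (50%, 23.7 to 76.3%), and all 4 intervals overlapped. The median best score of marked genes was 24.98 for Wnt, 61.3 for Bmp, 69.0 for Gdf and 110.9 for Fgf, against 194.6 over all marked protein-coding genes. Without Gdf9, whose summit lies at another gene, the Gdf median was 42.3, below that of the Bmp genes. Fgf20 likewise owes its best score to a summit nearer to another gene. With only the nearest protein-coding gene counted, the Fgf median was 99.2. Both Gdf9 and Fgf20 are among the strong genes counted next. Strong promoters numbered 2 of 19 in Wnt (10.5%, 2.94 to 31.4%), 2 of 11 in Bmp (18.2%, 5.14 to 47.7%), 2 of 10 in Gdf (20%, 5.67 to 50.98%) and 9 of 22 in Fgf (40.9%, 23.3 to 61.3%), and these intervals overlapped as well. The Wnt family thus had the lowest median score at a share of marked genes like that of the Fgf and Bmp families. With overlapping intervals, the order of the families is a description.

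**Figure D1:**
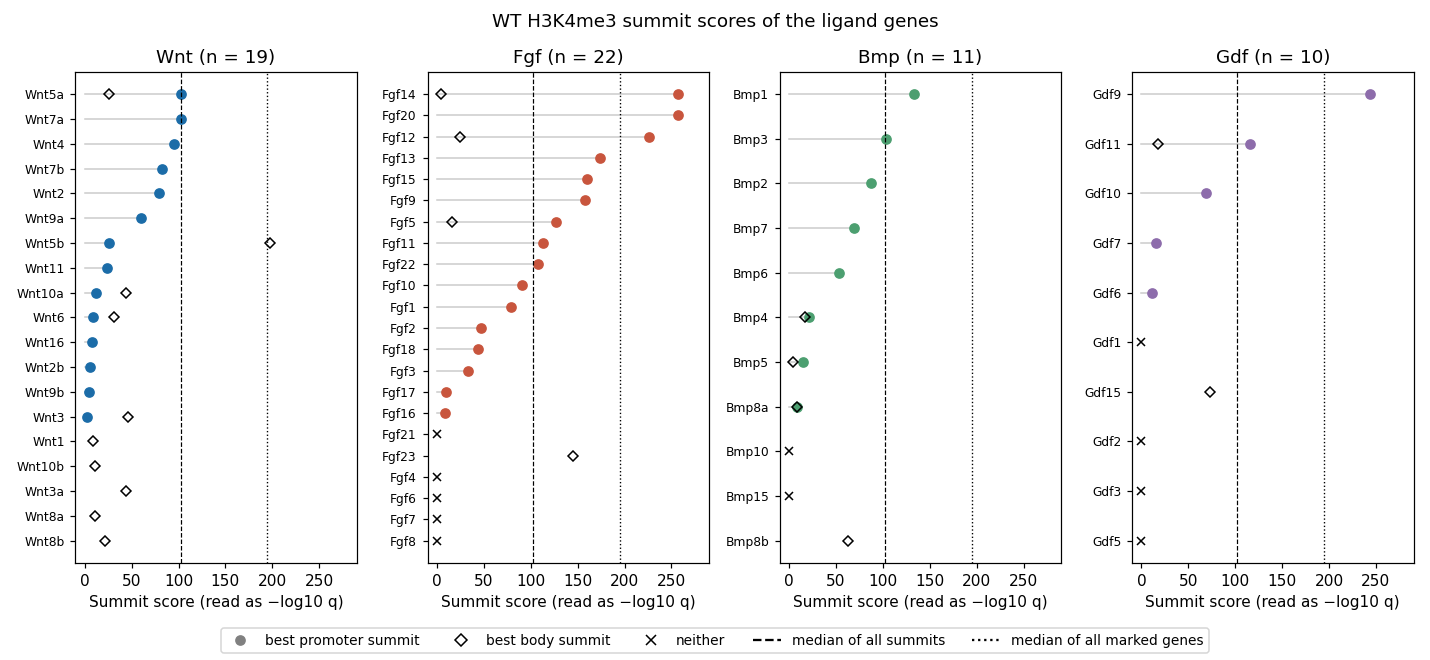
Best H3K4me3 summit score of each of the 62 ligands, by family (x axis, score read as −log10 of the q-value). Filled circles are the best promoter summit, open diamonds the best body summit and crosses genes with neither, with the median of all summits (dashed line, 102.3) and of all marked genes (dotted line, 194.6); only Fgf14, Fgf20, Fgf12 and Gdf9 lie right of the dotted line with a promoter summit.

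In the Wnt family the scores stopped just above the median of the list. Wnt5a (ENSMUSG00000021994, chromosome 14, 28504750 to 28527448, plus strand), which mostly signals without β-catenin, scored 103.1, 397 bp inside the gene and in an exon. Wnt7a scored 102.3, exactly the median of the list, and Wnt4, a factor of kidney and ovary development, scored 95.02. Wnt7a and its close relative Wnt7b, which scored 82.5, are the Wnts that act on brain vessels and at synapses. Wnt2, known from lung and vessel development, reached 79.5 and Wnt9a, a factor of joint development, 60.3.

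The other 8 marked Wnt genes scored between 2.04 and 26.1. They were Wnt5b (26.1), Wnt11 (23.8), which directs cell movement in gastrulation, Wnt10a (12.1), Wnt6 (8.51), Wnt16 (7.48), Wnt2b (5.59), Wnt9b (4.52) and Wnt3 (2.04). Wnt3, required for the primitive streak, had the weakest promoter summit of all ligands, 42 bp before its TSS and higher than only 0.302% of the list. Of the 8 ligands with a best score below 10, 5 were Wnt genes. The unmarked Wnt genes were Wnt1, Wnt3a, Wnt8a, Wnt8b and Wnt10b, among them Wnt1, the organiser signal of the midbrain and hindbrain border, and Wnt3a, which the embryonic hippocampus needs.

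The Fgf homologous factors were strongly marked throughout. These proteins bind voltage-gated sodium channels of neurons and set where and how the channels work. All 4 were marked and all 4 were strong, with Fgf14 at 257.2, Fgf12 at 226.5, Fgf13 at 174.3 and Fgf11 at 113.5. Fgf14 (ENSMUSG00000025551, chromosome 14, 123977907 to 124677127, minus strand) scored higher than 95.3% of the list, and 60 summits of the list had this same score. The summit of Fgf11 lay 861 bp before its outermost TSS, near the edge of the window.

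The homologous factors were marked at several starts far apart, from which transcripts with different first exons, and so proteins with different N-terminal ends, are made. Fgf14 has 2 annotated TSSs and both carried a strong summit, of 257.2 at the outermost and of 177.9 at the inner one, 483606 bp apart. Fgf13 (ENSMUSG00000031137, chromosome X, 59062145 to 59568071, minus strand) had summits of 150.8 and 174.3 that were 433474 bp apart, with the stronger at the inner group of starts. Fgf13 showed no promoter summit between those ends, although it has an annotated start at 402 kb from the outermost. Fgf14 has no annotated start between its ends, so no promoter summit could be counted there.

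Fgf12 (ENSMUSG00000022523, chromosome 16, 28160098 to 28753068, minus strand) had 4 promoter summits at 3 separated groups of starts. The outermost start had 226.5, the start 188 kb further on had 88.9 and 2.82, and the starts near 307 kb had 154.7. Its innermost annotated starts, at 461 and 561 kb, had none. Fgf11, the shortest of the group at 5790 bp, has 2 starts 0.141 kb apart and had 1 summit. With no spread between animals, the order of the 4 genes is a description.

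Leaving these 4 genes out lowered the values of the Fgf family, and its share of strong promoters and its median score stayed above those of the Wnt family. Of the remaining 18 Fgf genes 12 were marked (66.7%) and 5 were strong (27.8%), and the median best score fell from 110.9 to 84.5. These 5 include Fgf20, whose summit of 257.2 lay nearer to another gene and whose other summit scored 14.7. Over all ligands without the homologous factors and Bmp1, 38 of 57 were marked (66.7%), 10 were strong (17.5%) and the median was 56.7. This list was chosen with the results known.

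**Figure D2:**
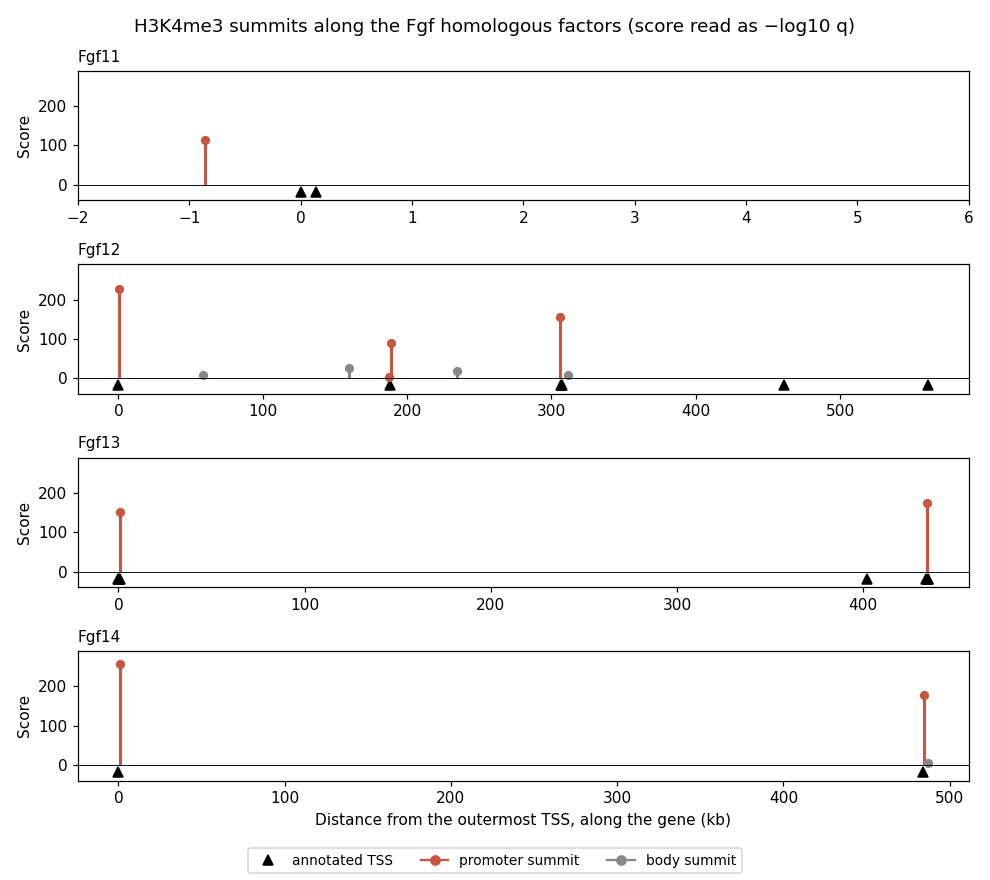
H3K4me3 summits along the 4 Fgf homologous factor genes, with distance from the outermost TSS in kb on the x axis (each panel has its own scale) and the summit score, read as −log10 of the q-value, on the y axis. Triangles are annotated TSSs, red stems promoter summits and grey stems body summits; Fgf12, Fgf13 and Fgf14 each carry strong summits at starts whose summits lie 305972, 433474 and 483606 bp apart.

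Among the secreted Fgfs, Fgf20 had the highest value, but its summit lay nearer to another gene. At Fgf20 (ENSMUSG00000031603, chromosome 8, 40279166 to 40308331, minus strand), a factor of the Fgf9 subfamily, the summit of 257.2 lay 612 bp inside the gene and nearer to a TSS of Micu3, a regulator of mitochondrial calcium uptake. The other start of Fgf20, had its own summit of 14.7, 21165 bp from the first. Fgf15, which as a gut hormone represses bile acid synthesis, followed with 159.5 at 844 bp before its TSS. Fgf9, a factor made by neurons and needed for testis and lung, scored 157.9. Fgf5, which ends the growth phase of hair, scored 127.1, and Fgf22, which organises presynaptic terminals, scored 108.2.

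The remaining marked Fgfs were below the median of the list. Fgf10, the lung and limb bud factor, scored 90.3, at a position 95 bp from the TSS of an antisense RNA gene. Fgf1 and Fgf2, which lack a signal peptide and leave cells by an unusual route, scored 78.8 and 47.2, Fgf18, a cartilage and bone factor, 43.5, and Fgf3, an inner ear factor, 33.1. Fgf17 (9.19) and Fgf16 (8.07) were the lowest. The 6 unmarked Fgfs were Fgf4, Fgf6, Fgf7, Fgf8, Fgf21 and Fgf23, which include the blastocyst factor Fgf4, the organiser factor Fgf8, the liver hormone Fgf21 and the bone hormone Fgf23.

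By subfamily, marked genes made up 3 of 3 in the Fgf9 subfamily (Fgf9, Fgf16, Fgf20), 2 of 2 in the Fgf1 subfamily and 3 of 4 in the Fgf7 subfamily (Fgf3, Fgf7, Fgf10, Fgf22). The Fgf8 subfamily (Fgf8, Fgf17, Fgf18) had 2 of 3 and no strong promoter. The Fgf4 subfamily (Fgf4, Fgf5, Fgf6) and the endocrine Fgfs (Fgf15, Fgf21, Fgf23) had 1 of 3 each, and in both the marked gene was strong. Members of a subfamily therefore did not always share the state of their promoters, with Fgf9 at 157.9 and Fgf16 at 8.07 inside the same group.

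In the Bmp family the highest score belonged to the protease. Bmp1 (ENSMUSG00000022098, chromosome 14, 70474558 to 70520234, minus strand) scored 133.2 at 270 bp before its TSS. Bmp3, a member that dampens Bmp signalling in bone, scored 103.4, and Bmp2, the bone-inducing ligand also needed for heart development, scored 87.2. Bmp7 scored 69.6 and Bmp6, the ligand that sets hepcidin and so iron uptake, 53.1. Bmp4, a ligand of dorsal-ventral patterning, scored 21.6, at a position 78 bp from the TSS of an antisense RNA gene. Bmp5 (14.3) and Bmp8a (7.83) were lowest, and Bmp8b, the heart ligand Bmp10 and the oocyte ligand Bmp15 were unmarked.

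In the Gdf family the highest score again lay at a shared region. Gdf9 (ENSMUSG00000018238, chromosome 11, 53431023 to 53437904, plus strand), a growth factor of the oocyte, had a summit of 243.8, but this summit lay 525 bp before Gdf9 and 64 bp from a TSS of Uqcrq, a subunit of respiratory complex III. When a summit was counted only for the protein-coding gene with the nearest TSS, Gdf9 was unmarked, and 42 of 62 ligands were still marked, against 59.5% of all protein-coding genes under this rule. Gdf11 (ENSMUSG00000025352, chromosome 10, 128882295 to 128891718, minus strand), which patterns the axial skeleton, scored 115.8. Gdf10 scored 69.0, Gdf7, a factor of dorsal spinal cord neurons, 15.7, and Gdf6, a factor of eye and joint development, 11.6. Gdf1, Gdf2, Gdf3, Gdf5 and Gdf15 were unmarked.

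Close relatives across the Bmp and Gdf names were also counted. Bmp2 and Bmp4 were both marked, as were Bmp3 and Gdf10, and 4 of the 5 genes from Bmp5 to Bmp8b. Neither Gdf2 nor Bmp10, which both act on the endothelial receptor Acvrl1, had a promoter summit, and neither did Gdf1 nor Gdf3, which act together with Nodal. Of the oocyte pair only Gdf9 was marked, through the summit beside Uqcrq.

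Marked ligands were concentrated at low scores when set against all marked genes. Below 50 there were 18 of 43 ligands (41.9%), against 11.6% of all marked protein-coding genes. Above 150 there were 7 ligands (16.3%), against 69.6%. These 7 were Fgf14, Fgf20, Fgf12, Gdf9, Fgf13, Fgf15 and Fgf9. No Wnt and no Bmp gene was among them. Over all marked ligands the median best score was 69.6, with quartiles of 14.98 and 110.9, while all marked genes had quartiles of 129.8 and 230.2.

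**Figure D3:**
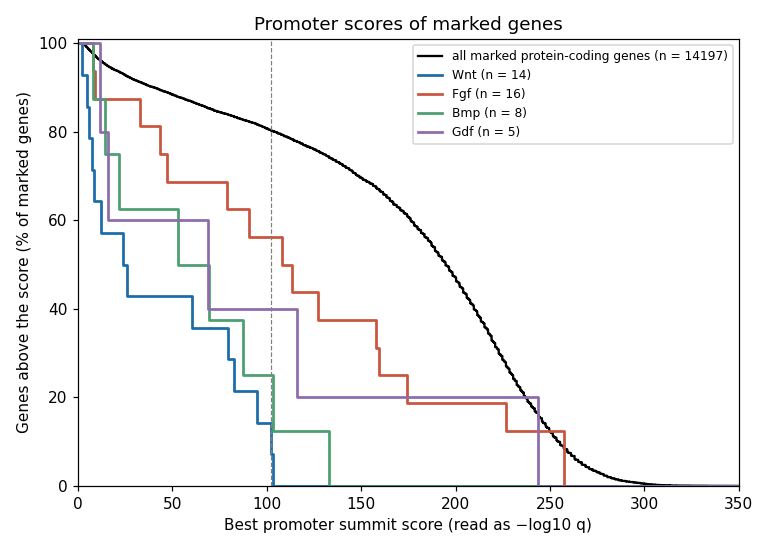
Share of marked genes (y axis, percent) whose best promoter score exceeds the value on the x axis (score read as −log10 of the q-value), for 14 Wnt, 16 Fgf, 8 Bmp and 5 Gdf genes and for all 14197 marked protein-coding genes. The 4 family curves fall below the black curve over most of the range, the Wnt curve ends at 103.1, just right of the dashed line at the median of all summits, and the Gdf and Fgf curves extend furthest through Gdf9, Fgf20 and Fgf14.

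A pair of other ligand lists put these values in context. Axon guidance ligands (35 genes) were marked in 30 cases (85.7%) and strong in 23 (65.7%), with a median best score of 166.7. Immune ligands (61 genes) were marked in 17 cases (27.9%) and strong in 4 (6.56%), with a median of 34.9. The 62 ligands lay between these lists in each of the 3 values. Because all of them come from the same pooled list, the differences were not tested.

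Best summits of marked ligands lay a little inside the gene. The best summit was downstream of its nearest own TSS in 31 of 43 ligands (72.1%), against 79.3% of all marked genes, and the median distance from the TSS in either direction was 342 bp against 222 bp. Ligands had fewer annotated TSSs than genes at large, and the part of this in the distance was not tested. Examples close to the start were Gdf7 at 25 bp before, Wnt3 at 42 bp before and Fgf5 at 44 bp before the TSS. At the other end were Bmp5 at 989 bp and Wnt9a at 921 bp inside the gene.

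Several ligands carried more than 1 promoter summit, and in the Wnt family this was frequent. Of 62 ligands 18 had 2 or more (29.0%), against 11.7% of all protein-coding genes. They comprised 8 of 19 Wnt genes (42.1%), 7 of 22 Fgf genes (31.8%), 2 of 11 Bmp genes and 1 of 10 Gdf genes. In 10 of the 18 all summits lay within 2 kb of each other, as at Wnt2b, where summits of 5.59 and 5.52 stood 437 bp apart on either side of the TSS. When summits within 1 kb were joined, 11 ligands had 2 or more (17.7%), against 8.78% of all protein-coding genes.

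The other 8 ligands had summits near annotated starts over 2 kb apart. Besides Fgf12, Fgf13, Fgf14 and Fgf20 they were Fgf1, Wnt5a, Wnt7b and Wnt11. At Fgf20 and Wnt7b 1 of the summits lay nearer to a TSS of another gene, so it need not mark a start of the ligand. Fgf1 had its stronger summit (78.8) at an inner start and a summit of 6.60 near its outermost start, 10554 bp apart. Wnt7b likewise had 82.5 at an inner start and 45.7 at another start 3487 bp away, where the TSS of the long RNA gene AU022754 lay 73 bp from the summit. Wnt5a had 103.1 at its outermost start and 21.6 and 5.31 at inner starts. Wnt11 had 23.8, 13.6 and 11.99 within 3563 bp.

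Closely spaced summits were found at 10 ligands and the second summit was weak in most. The lower value was 12.5 at Wnt4, 8.28 at Wnt9a, 10.7 at Wnt5b, 5.10 at Wnt16, 10.1 at Fgf18 and 2.84 at Fgf16. At Bmp6 it was 22.4, at Bmp5 10.7 and at Gdf11 24.9. Each of these was below the lower quartile of all marked genes, but so was the best score of the same gene, so this does not set the second summits apart.

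Body summits were found in 20 of 62 ligands (32.3%), against 14.7% of all protein-coding genes, and Wnt genes made up 10 of them. Ligands had fewer annotated TSSs, with medians of 2 in marked and 1 in unmarked ligands, against 5 and 2 over all genes. Fewer windows leave more of a gene to count as body. The part of this in the shares with body summits, or with body summits alone, was not tested. By family, genes with body summits were 10 of 19 Wnt (52.6%), 4 of 22 Fgf (18.2%), 4 of 11 Bmp (36.4%) and 2 of 10 Gdf genes (20%). The 30 body summits had a median score of 17.1, against 14.3 for the 5422 body summits of all protein-coding genes. Only 2 reached the median of the list, 197.7 in Wnt5b and 145.1 in Fgf23. Of the 30, 12 lay within 3 kb of an own TSS.

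A few body summits sat at another gene inside the ligand. The Wnt5b summits of 197.7 and 73.2 lay 637 and 613 bp from TSSs of Fbxl14, an F-box protein gene inside an intron of Wnt5b. The Bmp8b summit of 63.0 lay 103 bp from a TSS of Oxct2b, and the Bmp8a summit of 8.53 lay 200 bp from a TSS of Oxct2a, both genes of a ketone body enzyme of the testis. The strongest signal inside Wnt5b was therefore at another gene, while the promoter of Wnt5b itself reached 26.1. These 4 were the body summits within 1 kb of a TSS of another gene.

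In 8 ligands a body summit was the sole mark, which was the case for 2.89% of all protein-coding genes. These were Wnt1, Wnt3a, Wnt8a, Wnt8b, Wnt10b, Fgf23, Bmp8b and Gdf15, so that each of the 5 unmarked Wnt genes had a summit in its body. With these, all 19 Wnt genes had at least 1 summit within 1 kb of a TSS or in the body. The other families had 11 genes with neither, which were Fgf4, Fgf6, Fgf7, Fgf8, Fgf21, Gdf1, Gdf2, Gdf3, Gdf5, Bmp10 and Bmp15.

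Many body summits of ligands fell in coding exons, a division made after the values were seen. Of 30 body summits 11 lay in an exon (36.7%), against 18.2% for all protein-coding genes, and each of the 11 was in coding sequence. The last exon held 8 (26.7%), against 9.76%. The exonic share of the sequence that could hold a body summit was not measured. Its part in these shares was not tested. In the Wnt family 8 of 17 were exonic and 6 lay in last exons. The genes with a last-exon summit were Fgf23 (145.1), Gdf15 (73.3), Wnt10a (43.9), Wnt6 (31.7), Wnt8b (21.1), Wnt10b (10.8), Wnt8a (10.8) and Wnt1 (9.17). The other exonic summits were 18.5 in Wnt10a, 16.6 in Bmp4 and 7.39 in Wnt5a.

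Most of these exonic summits lay in sequence richer in CpG than the start of their gene. The ratio of observed to expected CpG over 500 bp either side of the summit had a median of 0.612 for the 11 exonic summits of ligands and 0.496 for the exonic body summits of all genes. At Fgf23 (ENSMUSG00000000182, chromosome 6, 127072902 to 127081408, plus strand) it was 0.678 at the summit and 0.175 at the TSS. At Gdf15 it was 0.647 against 0.2013, at Wnt8b 0.746 against 0.327 and at Wnt1 0.779 against 0.582. The ratio was higher at the summit than at the outermost TSS for 9 of the 11 and lower for 2, with 0.560 against 0.629 at Wnt10b and 0.506 against 0.655 at Wnt5a. At Wnt8a it was 0.326 at the summit, below the median for all genes. Summit and TSS were not compared for the exonic body summits of all genes, so whether this pattern is particular to ligands is not known. The 151 bases of coding sequence centred on the Fgf23 summit (chr6:127080180-127080330, plus strand, GRCm38), shown because they carry the strongest mark of that gene 7353 bp from its start, hold 19 CpGs, again in capitals.
Fgf23 last exon: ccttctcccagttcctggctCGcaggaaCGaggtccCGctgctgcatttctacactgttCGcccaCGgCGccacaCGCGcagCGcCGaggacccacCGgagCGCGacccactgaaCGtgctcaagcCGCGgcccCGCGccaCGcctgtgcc

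The intronic body summits were mostly weak. Wnt3 had 46.5 and 11.6 at 34423 and 36092 bp inside the gene, both above the 2.04 at its promoter, and Wnt3a had 44.4 at 26599 bp from its TSS. Fgf12 had 4 intronic summits, of 24.9, 17.7, 8.07 and 8.07. Wnt5a had 26.1, Fgf5 15.5, Gdf11 17.98, Bmp5 4.45, Fgf14 4.45 and Wnt10a 3.76, and Wnt5b had 4.73 and 2.06 besides those at Fbxl14. In Wnt3, Wnt5b, Wnt6, Wnt10a and Bmp8a the best body summit scored higher than the best promoter summit.

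The 19 unmarked ligands differed in how far the nearest summit was. It lay within 3 kb of a TSS in 3, at 1438 bp for Wnt8b, 1940 bp for Gdf15 and 2857 bp for Wnt1. In 8 it was beyond 10 kb, up to 117389 bp for Fgf7, the keratinocyte growth factor, 79556 bp for Bmp15 and 64669 bp for the muscle factor Fgf6. The endothelial ligand Gdf2, Wnt3a, the left-right axis factor Gdf1, Fgf21 and the joint factor Gdf5 had distances between 11397 and 17058 bp. For the other 8 it was between 3161 bp (Bmp8b) and 8293 bp (Fgf4). The 75-base windows near the starts were unique in the genome for at least 99% of positions in 57 of 62 ligands, and the lowest shares were 81.8% for Fgf12 and 94.9% for Bmp8b. The part of repeated sequence in the missing summits was not tested.

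Unmarked ligands had promoters poorer in CpG than marked ones, as all genes did. The observed over expected ratio within 500 bp of the outermost TSS had a median of 0.683 in marked ligands (0.199 to 1.08) and 0.366 in unmarked ligands (0.0492 to 0.846). Over all protein-coding genes these medians were 0.706 and 0.176. The unmarked ligands were therefore richer in CpG than unmarked genes at large. The unmarked ligands Bmp8b (0.846), Fgf8 (0.790) and Wnt3a (0.749) exceeded the median of the marked ones.

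**Figure D4:**
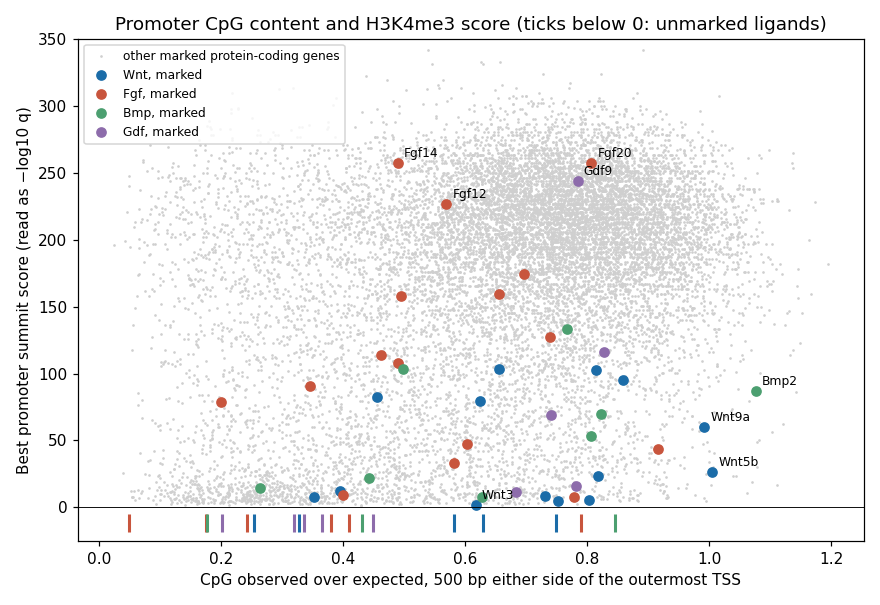
Best promoter score (y axis, read as −log10 of the q-value) against the ratio of observed to expected CpG within 500 bp of the outermost TSS (x axis) for marked ligands by family, over all other marked protein-coding genes in grey, with unmarked ligands as ticks below 0. Most coloured points lie below the dense grey cloud at high CpG, with Bmp2, Wnt5b and Wnt9a at the right and below a score of 100, and Fgf14 at 257.2 with a ratio of 0.490.

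The low scores of ligands were also seen within broad classes of CpG content. All genes were ranked by the ratio at the outermost TSS and split into 3 classes of equal size, within which CpG content was not matched. In the class of highest CpG content 20 of 23 ligands were marked (87.0%) and 6 were strong (26.1%), against 96.6% and 87.6% of all genes, and the median best score was 64.7 against 207.7. In the intermediate class 21 of 31 were marked (67.7%) and 9 were strong (29.0%), against 79.5% and 59.1%, with medians of 82.5 and 182.8. In the class of lowest CpG content 2 of 8 were marked (25%) and 0 were strong, against 18.1% and 9.38%.

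Within the marked ligands CpG content at the outermost TSS and best score were barely related. Spearman's rho across the 43 marked ligands was 0.055, and across all 14197 marked genes it was 0.27, both as descriptions over genes of the same list. The best summit can lie at another start than the outermost, as at Fgf1, Fgf9, Fgf10, Fgf13, Wnt7b and Bmp4. At Fgf20 and Gdf9 it lay nearer to another gene. Ratio and score then belong to different places, and the part of this in rho was not tested. Bmp2 had the highest ratio of all ligands (1.08) with a score of 87.2, Wnt5b had 1.01 with 26.1 and Wnt9a 0.992 with 60.3. Fgf14, with the highest score, had a ratio of 0.490. Marked ligands were longer than unmarked ones, with a median gene length of 22847 bp against 6615 bp, and had a median of 2 annotated TSSs against 1, and each TSS adds a window in which a summit can fall. Over all protein-coding genes the median was 5 TSSs in marked and 2 in unmarked genes. The part of TSS number in the low scores of ligands was not tested. Gene length and score had a rho of 0.19 over the 43 marked ligands.

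Short sequence motifs were counted in the 300 bases from 250 before to 50 after the outermost TSS, on both strands, and none of the 3 motifs contains another. The TATA-box core TATAAA was present in 10 of 62 ligands (16.1%), against 12.6% of all protein-coding genes. They were Bmp3, Bmp15, Fgf4, Fgf5, Fgf13, Fgf16, Fgf21, Gdf2, Gdf11 and Wnt11. The GC box GGGCGG, the core of Sp1 binding sites, was present in 38 (61.3%), against 43.0%, and it was found in 30 of 43 marked and 8 of 19 unmarked ligands. In all genes the GC box was in 59.4% of marked and 12.996% of unmarked promoters. The motif CTTTGAT, bound by Tcf and Lef factors, was present at Wnt11 and Wnt8a (3.23%), against 3.41%. A match of letters is not evidence of binding.

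Ligand genes that neighbour each other within 50 kb formed 8 pairs of 15 genes, and the members differed in 4 of the 8. Whether this departs from what the share of marked ligands alone would give was not tested. Both genes were marked at Wnt6 and Wnt10a (8.51 and 12.1, 6193 bp apart) and at Wnt9b and Wnt3 (4.52 and 2.04, 24328 bp apart). Neither was marked at Wnt10b and Wnt1 nor at Fgf6 and Fgf23. In the other 4 pairs one gene was marked, with Wnt9a at 60.3 beside unmarked Wnt3a, Gdf10 at 69.0 beside unmarked Gdf2, and Fgf3 at 33.1 and Fgf15 at 159.5 on either side of unmarked Fgf4. The gap between Gdf10 and Gdf2 was 3055 bp and that between Fgf3 and Fgf4 was 2930 bp. In the 4 pairs of Wnt genes the highest promoter score was 60.3.

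The receptors and the machinery inside the cell were marked more often than the ligands that act on them. Of 79 receptors, co-receptors and genes inside the cell 75 were marked (94.9%) and 51 were strong (64.6%), with a median best score of 174.3, against 64.7% and 52% of all protein-coding genes. With the secreted antagonists, the R-spondins and their receptors, the 2 Wnt secretion genes and the other TGF-β ligands added, 113 of 128 genes were marked (88.3%) and 66 were strong (51.6%), the latter close to the share of all genes. The lists were set up with earlier results of these data known. All 16 Wnt receptors and co-receptors were marked, 8 of them strongly, with a median of 95.5 and a maximum of 237.1 at the receptor kinase relative Ryk. Porcn, which attaches the lipid to Wnts, and Wls, which carries them to the cell surface, were both strong, at 176.2 and 190.4. All 16 Wnt pathway genes inside the cell were marked and 12 were strong, with a median of 204.9 and a maximum of 280.4 at the kinase Gsk3b.

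**Figure D5:**
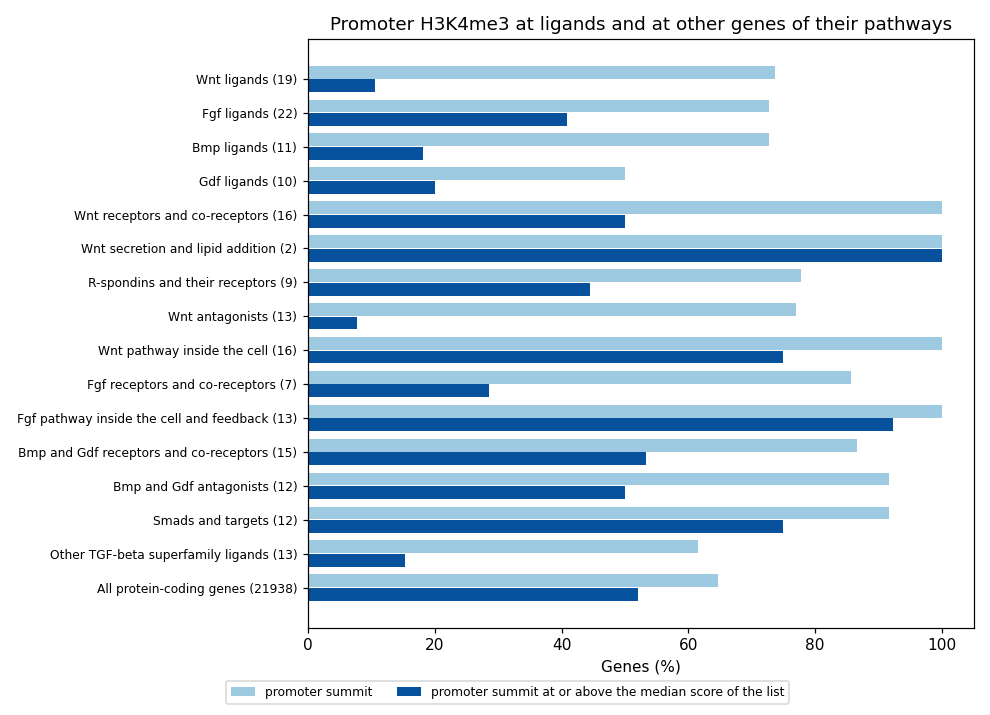
Percent of genes (x axis) with a promoter summit (light bars) and with one whose score reaches the median over all summits (dark bars), for the 4 ligand families, 11 lists of other pathway genes and all protein-coding genes, with the number of genes in brackets. The light bars of the Wnt, Fgf and Bmp ligands are near that of all genes while their dark bars are shorter, and the dark bars of the lists inside the cell are the longest apart from the 2 genes of Wnt secretion.

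Among the secreted regulators of Wnt signalling, the antagonists had low scores, as the Wnt genes did. Of 13 antagonists 10 were marked and 1 was strong, Sfrp4 at 131.5, with a median of 28.5, and Dkk1, Dkk4 and Sost were unmarked. R-spondins and their receptors were marked in 7 of 9 cases and strong in 4, with a median of 102.3 and a maximum of 168.8 at the receptor Lgr4, and Lgr6 and Rspo4 were unmarked. The list medians were not tested against each other.

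For the Fgf pathway, 6 of 7 receptors and co-receptors were marked and 2 were strong, with a median of 75.5, a maximum of 175.0 at Fgfr1 and no promoter summit at Klb, the co-receptor of the endocrine Fgf15 and Fgf21. The 13 genes inside the cell and of feedback were all marked and 12 were strong, with a median of 208.4 and a maximum of 272.6 at the feedback inhibitor Spry2. Unlike in the other pathways, the marked receptors had a lower median (75.5) than the marked Fgf genes (110.9). Without the homologous factors, which are not ligands of these receptors, the Fgf median was 84.5. That value still counts the Fgf20 summit of 257.2, which lay nearer to Micu3, while the other Fgf20 summit scored 14.7. The order of receptors and ligands therefore depends on which of these genes and summits are counted.

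For Bmp and Gdf signalling, 13 of 15 receptors and co-receptors were marked and 8 were strong, with a median of 184.5 and a maximum of 241.9 at the activin receptor Acvr1b. Bmpr2, the main type II receptor of Bmps, was unmarked because its nearest summit, of 243.6, lay 1289 bp from a TSS, just outside the window. Gfral, the Gdf15 receptor of the hindbrain, was unmarked with its nearest summit 109604 bp away. Of 12 antagonists 11 were marked and 6 were strong, with a median of 139.1 and a maximum of 207.2 at Fstl1. Smads and their Id targets were marked in 11 of 12 cases and strong in 9, with a median of 154.7 and a maximum of 229.6 at Id2, and Smad1 had its summit of 207.7 at 1089 bp. Of the other ligands of the TGF-β superfamily 8 of 13 were marked and 2 were strong, with a median of 91.5 and a maximum of 187.0 at the inhibin subunit Inha. Amh, Inhbc, Inhbe, Lefty1 and Lefty2 were unmarked, as was Chrdl2 among the antagonists.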

How the data were processed

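H3K4me3 chromatin immunoprecipitation sequencing was read in WT amygdala only. Nuclei were digested with micrococcal nuclease without crosslinking, and per the Methods of the study reads were aligned to mm10 with Bowtie and peaks were called against the input. The submitters' processing notes name MACS2 2.1.0.20140616, Bowtie and SAMtools. The list that the authors deposited pools both WT mice and gives each 1-bp summit a score, taken here to be −log10 of its q-value. The reads behind each score are not given by the list, so the precision of single scores is unknown, and although the Methods describe removal of black-list regions, whether this applied to the list is not known.

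Of 24162 summits, the 24139 on the assembled autosomes, X and Y entered the counts. They were assigned to genes of GENCODE M21 (GRCm38, which is mm10) within 1 kb of any TSS (promoter) or else inside the gene (body). Shares carry 95% Wilson intervals for counting error, scores carry medians and quartiles, and no p-value is given because genes of 1 pooled list are not replicates. The members, marker lists and pathway lists were chosen with earlier results of these data known. Values were given for the 3 best and the 2 lowest marked members of each family, members with several promoter summits or with body summits, members whose summit lies nearer another gene, the Fgf homologous factors and unmarked members of high CpG content, and in pathway lists for the best and the unmarked genes. The other members were named after their values were seen, as were the places of body summits in exons. Alternatives covered the window, the score threshold, joining of summits, the TSSs used and the nearest gene. The assignment was tested on simulated data. Sequences were read from the GRCm38 genome by coordinates. Some promoter sequences are not reported here. Python 3.11.15, numpy 2.4.6, pandas 2.3.3, scipy 1.17.1, pysam 0.24.0, samtools 1.23.1 and matplotlib 3.10.9 were used.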

Additional observations from a re-analysis of the deposited data

How the results depend on the processing

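No paired analysis was possible because the list pools both WT mice and no comparison between groups was made, and for the same reason no replicate could be left out. Of 91 recomputed values 75 stayed within their margin (the 95% interval of a share or of a median, the range for a median of under 6 genes, or 1.5 times a count) and 16 did not. Most changes came from counting only summits at or above the median score, by which the share with a promoter summit was 24.2% for all ligands, 10.5% for Wnt, 40.9% for Fgf, 18.2% for Bmp and 20% for Gdf genes, the median best score was 133.2 for all ligands and 102.7 for Wnt genes, 3 ligands had 2 or more promoter summits, 2 had body summits and 2 had only these. The shares at that threshold are those of strong promoters given above. Dropping lower summits can only lower such shares and raise the medians, so these changes followed from the setting. The number of ligands with 2 or more promoter summits was 10 with a window of 500 bp, 11 with summits within 1 kb joined and 10 with the outermost TSS alone. With a window of 3 kb, 11 ligands had body summits and 5 had only these, and with the outermost TSS alone 13 had only these. Fgf genes had the highest and Wnt genes the lowest median score with each window, TSS set and way of assigning genes, and among strong promoters alone the Gdf genes were highest (179.8). The Gdf median was 42.3 with a window of 500 bp, with TSSs of protein-coding transcripts and with the nearest protein-coding gene alone, each of which left Gdf9 out, and it was then below the Bmp median of 53.1, 69.6 and 61.3. With only the nearest protein-coding gene counted, Gdf9 was unmarked and the best score of Fgf20 was 14.7. The depth behind the scores is unknown, and how far it sets them was not tested.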
